A study of Mus musculus with 27 samples.

Results

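Deleting *Kdm5b* in the liver with a vector restricted to hepatocytes was set against deleting it with a vector that carries no such restriction, in female mice kept on the same diet. KDM5B is a histone demethylase that removes methyl groups from lysine 4 of histone H3, a mark of active promoters. All mice were *Kdm5b* fl/fl, the controls included, so *Kdm5b* could be cut only where Cre recombinase was made. In HepKO mice (AAV8-TBG-Cre) the thyroxine-binding globulin promoter drives Cre in hepatocytes. In KO mice (AAV8-CMV-Cre) the cytomegalovirus promoter drives Cre without regard to cell type, within the cells that an AAV8 vector reaches, which in the liver are mostly hepatocytes. HepKO mice 13, 14 and 15 and KO mice 1, 2 and 3 formed the comparison, 6 of the 27 livers in the series, and each library was 1 mouse. WT mice 5, 6 and 7 received AAV8-control and serve below as a reference level only, and the label does not name the promoter of that vector. All 9 mice were female and on a Western diet with alcohol (WDA) for 8 weeks by the labels, whereas the study's methods give a longer feeding for this model, and the sources used here do not settle which holds for these livers. The labels give no age and no hour of liver collection.

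RNA was taken from whole liver, so the libraries hold hepatocytes together with Kupffer cells (the resident liver macrophages), stellate cells, endothelium and blood. Summed counts were 17734001 to 18258368 in HepKO and 16982524 to 17630819 in KO livers, so each HepKO library was slightly deeper than each KO library. Between 12247 and 12374 genes had at least 10 counts. The root mean square difference in log2 CPM (read counts scaled to a common library size) was 0.343 to 0.485 between livers of 1 group and 0.379 to 0.468 between livers of different groups, so the groups did not separate over all genes. On the first component of the 6 livers (29.2% of the variance) KO mouse 1 lay farthest out, at 28.8, against -17.7 to 11.7 for the other 5. WT mouse 7 stood apart from the other 8 WDA females on their first component (50.3% of the variance) and is listed last in each WT triplet. Hepatocyte markers overlapped between the groups in summed level. All 12 were tested, 0 had an unadjusted edgeR p under 0.05, and their summed level was 117001 to 125503 CPM in HepKO and 109579 to 131523 CPM in KO livers.

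*Kdm5b* (gene 75605, chromosome 1, 134560178 to 134632878 in GRCm38.p6) was checked first. It had 252, 147 and 312 reads in HepKO mice 13, 14 and 15, and 416, 289 and 248 reads in KO mice 1, 2 and 3. This was 14.2, 8.28 and 17.4 CPM against 24.2, 16.0 and 14.4 CPM, with means of 13.3 ± 4.64 and 18.2 ± 5.26 (SD, n = 3). The groups overlapped. The log2 fold change of HepKO over KO was -0.45 (SE 0.274, adjusted p = 0.909), so the transcript was not distinguishable between the vectors at this spread. In WT livers it was 21.6, 25.4 and 32.2 CPM, above all 3 HepKO livers and above KO mice 2 and 3. These reads cover the whole gene and include cells the vector did not reach. They do not show how many copies lost the floxed exons. In whole liver RNA, fewer cells of a type and less RNA per cell cannot be told apart. The relatives *Kdm5a* and *Kdm5c*, which remove the same mark, were close in both groups. *Kdm5a* was 40.3, 35.7 and 39.2 CPM in HepKO and 29.4, 36.5 and 35.7 CPM in KO livers, and *Kdm5c* was 69.1, 66.9 and 68.4 and 90.9, 76.1 and 61.3 CPM. Per transcript length, mean FPKM in HepKO livers was 2.20 for *Kdm5b*, 3.55 for *Kdm5a* and 9.44 for *Kdm5c*.

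**Figure D1:**
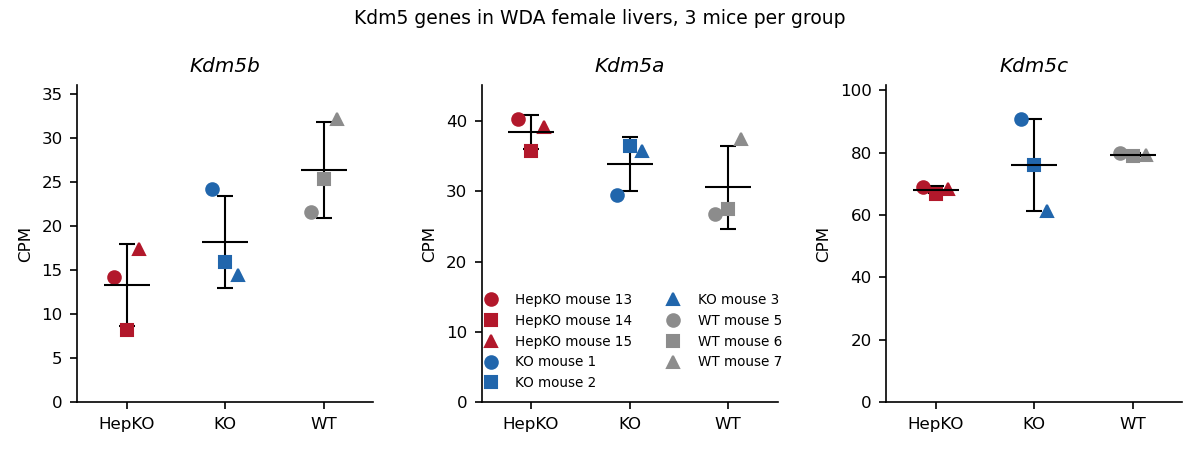
CPM of *Kdm5b*, *Kdm5a* and *Kdm5c* in each WDA female liver (points, 1 mouse each), with the group mean and SD of 3 mice (bars). HepKO and KO livers overlap for all 3 genes, and *Kdm5b* lies between 8.28 and 17.4 CPM in HepKO and between 14.4 and 24.2 CPM in KO livers.

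The question the comparison answers is which liver transcripts differ when *Kdm5b* is targeted in hepatocytes rather than with the general promoter. Only 2 of 12351 genes tested (0.0162%) passed an adjusted p of 0.05 with edgeR, both higher in HepKO, both over 2-fold and both parts of the circadian clock. These were *Ciart*, which encodes a repressor of the clock activators, and *Dbp*, which encodes a transcription factor that carries the daily rhythm to liver output genes. No gene passed in the other direction. At an unadjusted p under 0.05 there were 378 genes higher in HepKO (3.06%) and 331 lower (2.68%), 709 in all, where 618 would pass if no gene differed. Each HepKO liver lay above each KO liver for 672 genes (5.44%), and below for 654 genes (5.3%). The median absolute log2 fold change was 0.11, and 48.5% of genes were higher in HepKO. DESeq2, the tool the study names, called 40 of 14085 genes (0.284%), 30 higher and 10 lower. Those 40 include *Ciart*, *Dbp*, *Nr1d1*, 7 major urinary protein genes and all 4 adult hemoglobin genes of the table. They also include *Kcnk5*, *Klf9*, *Klf13*, *Ugt1a5*, *Hamp2*, *Paqr9*, *Lpin1*, *Sesn2*, *Dusp1* and *Hspa1b*. Below, genes said to pass or not to pass are judged by edgeR unless another tool is named. The p-values rest on 3 mice in each group, and an exact permutation test of 3 against 3 cannot go below 0.1.

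**Figure D2:**
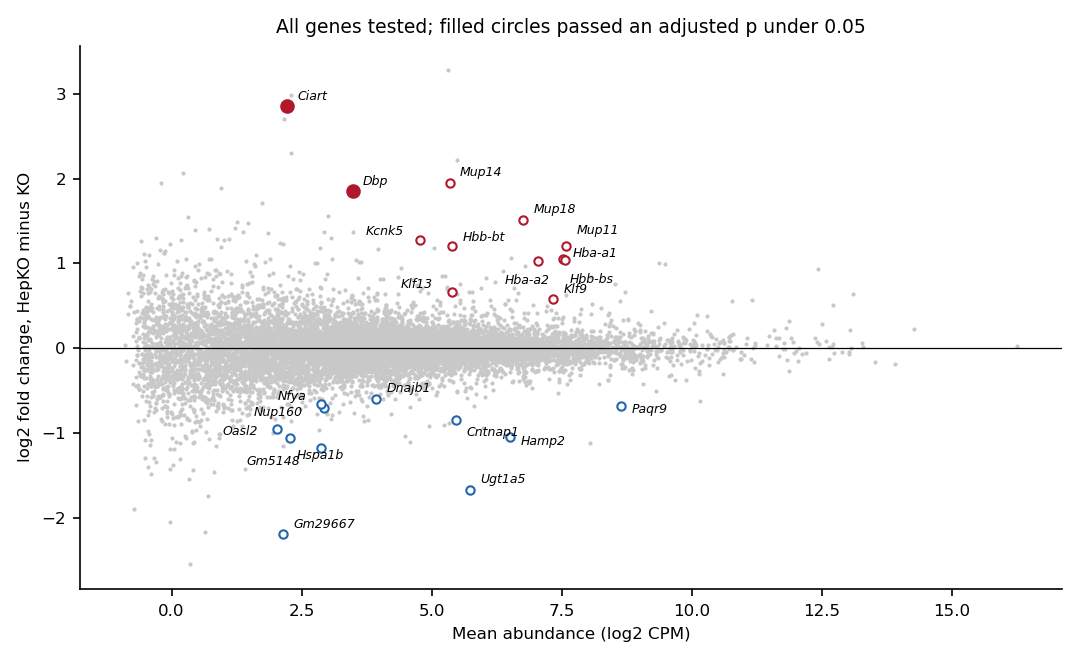
log2 fold change of HepKO over KO against mean abundance (log2 CPM) for the 12351 genes tested (grey). Labelled genes are those chosen by size and p, 12 higher and 11 of the 12 lower in HepKO. Only *Ciart* and *Dbp* (filled) passed the adjusted threshold with edgeR.

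*Ciart* (gene 229599, chromosome 3) had the clearest difference in the comparison. It was at 7.34, 8.44 and 7.99 CPM in HepKO mice 13, 14 and 15 and at 1.22, 0.939 and 1.10 CPM in KO mice 1, 2 and 3. The lowest HepKO liver was thus several times above the highest KO liver, and the highest mouse was 1.15 times the lowest in HepKO and 1.30 times in KO. The log2 fold change was 2.86 (SE 0.197, adjusted p = 0.00117), a 7.25-fold difference. It passed without each of the 6 mice in turn, with adjusted p-values of 0.00424 to 0.0167. In WT livers *Ciart* was 0.179, 1.74 and 1.01 CPM, so all 3 HepKO livers lay above the other 6 livers, and the KO livers lay within the range of the WT livers.

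*Dbp* (gene 13170, chromosome 7) was at 13.7, 15.7 and 22.6 CPM in HepKO and 4.54, 4.75 and 5.06 CPM in KO livers. The KO mice were nearly equal and all HepKO mice were above them. The log2 fold change was 1.85 (SE 0.201, adjusted p = 0.0328, 3.62-fold). This call was less stable than that of *Ciart*: the adjusted p was 0.0591 without HepKO mouse 14, and 0.0527, 0.128 and 0.114 without KO mice 1, 2 and 3. The WT livers spread more than both groups compared. *Dbp* was 3.17, 32.8 and 4.95 CPM there, 10.3 times higher in WT mouse 6 than in WT mouse 5, which received the same vector and diet. When the spread was estimated from the 9 WDA females, WT included, neither gene passed (all adjusted p-values were close to 1, and 309 genes had an unadjusted p under 0.05). Leaving out WT mouse 7, the smallest adjusted p over all genes was 0.0993.

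The circadian clock is a loop in which CLOCK or NPAS2 pairs with ARNTL (BMAL1), binds E-boxes (CACGTG) and drives the genes of its own repressors, PER, CRY, CIART and the nuclear receptors NR1D1 and NR1D2. The level of many of these transcripts in liver depends strongly on the hour of the day. The 250 bases before the listed promoter start site of each called gene are shown because they differ in this motif. They are RefSeq sequences of GRCm38.p6, printed 5′ to 3′ on the gene's strand with each CACGTG in capitals. *Ciart* is chr3:95882229-95882478 on the minus strand and *Dbp* is chr7:45704997-45705246 on the plus strand. These start sites differ from the outer bounds of the genes. The annotated *Ciart* gene ends at 95882257 and the *Dbp* gene begins at 45705100, so part of each stretch lies inside the gene. Bases farther upstream were not searched.
Ciart: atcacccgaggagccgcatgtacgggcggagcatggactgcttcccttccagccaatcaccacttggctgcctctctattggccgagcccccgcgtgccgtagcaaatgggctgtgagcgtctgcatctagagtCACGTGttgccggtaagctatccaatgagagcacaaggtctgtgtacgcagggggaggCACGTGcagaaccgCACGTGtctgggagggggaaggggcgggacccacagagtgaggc
Dbp: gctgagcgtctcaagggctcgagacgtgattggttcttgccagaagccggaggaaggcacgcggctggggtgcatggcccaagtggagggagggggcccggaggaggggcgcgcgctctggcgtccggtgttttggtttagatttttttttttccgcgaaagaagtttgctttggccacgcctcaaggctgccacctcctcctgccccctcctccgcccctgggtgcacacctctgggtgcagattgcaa
The *Ciart* stretch holds the motif 3 times, with first bases 116, 58 and 44 bases before the start, and the *Dbp* stretch does not hold these letters. The motif reads the same on both strands, and its copies do not overlap. It was present before at least 1 start site of 979 of the 9886 tested genes with an entry (9.9%), and 3 or more copies were present for 13 of them (0.131%). Of the 16 clock genes with an entry, 5 held it: *Ciart*, *Per1*, *Cry1*, *Tef* and *Bhlhe41*.

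All 19 clock genes listed were tested. Of these, 12 were higher and 7 lower in HepKO, with a median log2 fold change of 0.27 against -0.01 over all genes tested. The list was written with *Ciart* and *Dbp* already known, and its count is no independent evidence. Besides the 2 called genes, 5 had an unadjusted p under 0.05 and higher HepKO values, and 1, *Npas2*, had lower ones. The shares over all genes tested were 3.06% higher and 2.68% lower. Without KO mouse 1 the median was 0.12.

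Among the repressors, *Nr1d1* (REV-ERBα) was 116, 105 and 151 CPM in HepKO and 83.1, 48.3 and 46.8 CPM in KO livers. The groups did not overlap, but the gene did not pass (log2 fold change 1.06, SE 0.226, adjusted p = 0.441). It passed without KO mouse 1 (adjusted p = 0.0370). *Per1* was 46.0, 42.9 and 57.0 CPM in HepKO against 41.2, 24.1 and 23.4 CPM in KO, and *Per2* was 9.82, 8.73 and 8.43 against 5.41, 6.68 and 4.36 CPM. Both had each HepKO liver above each KO liver, with log2 fold changes of 0.72 and 0.71. *Cry2* (0.32) and *Bhlhe41* (0.92), a repressor of E-box genes, were higher without overlap, whereas *Cry1* (-0.32) was lower without overlap. None of these passed. *Nr1d2*, the partner of *Nr1d1*, was 44.8, 50.9 and 53.7 CPM against 32.5, 41.2 and 50.6 CPM and overlapped.

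The activators of the loop had lower means in HepKO livers. *Npas2* was 14.2, 9.68 and 9.10 CPM in HepKO and 19.3, 15.9 and 14 CPM in KO livers (log2 fold change -0.58, adjusted p = 0.755). *Arntl* was 24.4, 19.8 and 21.6 against 25.8, 25.5 and 24.2 CPM, a log2 fold change of -0.20. *Clock* was at 80.8, 69.8 and 58.8 and 67.1, 83.4 and 71.9 CPM. None of the 3 passed, and each overlapped between the groups. Of the output factors related to DBP, *Tef* was 70.0, 91.4 and 93.2 CPM against 60.5, 82.7 and 59.4 CPM and *Hlf* 38.5, 49.4 and 41.3 against 43.0, 52.0 and 40.0 CPM, and both overlapped between the groups. *Nfil3*, a repressor at the DNA element that DBP binds, was 25.8, 17.4 and 17.3 CPM in HepKO and 42.1, 18.7 and 20.9 CPM in KO livers, where mouse 1 was the high one. WT mouse 6, with the most *Dbp* of the WT livers, also had the most *Per2* (18.1 CPM), *Per3* (10.5 CPM) and *Tef* (124 CPM) and the least *Npas2* (4.10 CPM) and *Arntl* (11.2 CPM) among the 9 livers. In contrast, its *Ciart* was 1.74 CPM, below all HepKO livers. *Per1* and *Nr1d1* reached at most 18.6 and 92.9 CPM in WT livers, also below all HepKO livers. The hour of collection is not given in the sources used here, and its part in these values was not tested.

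**Figure D3:**
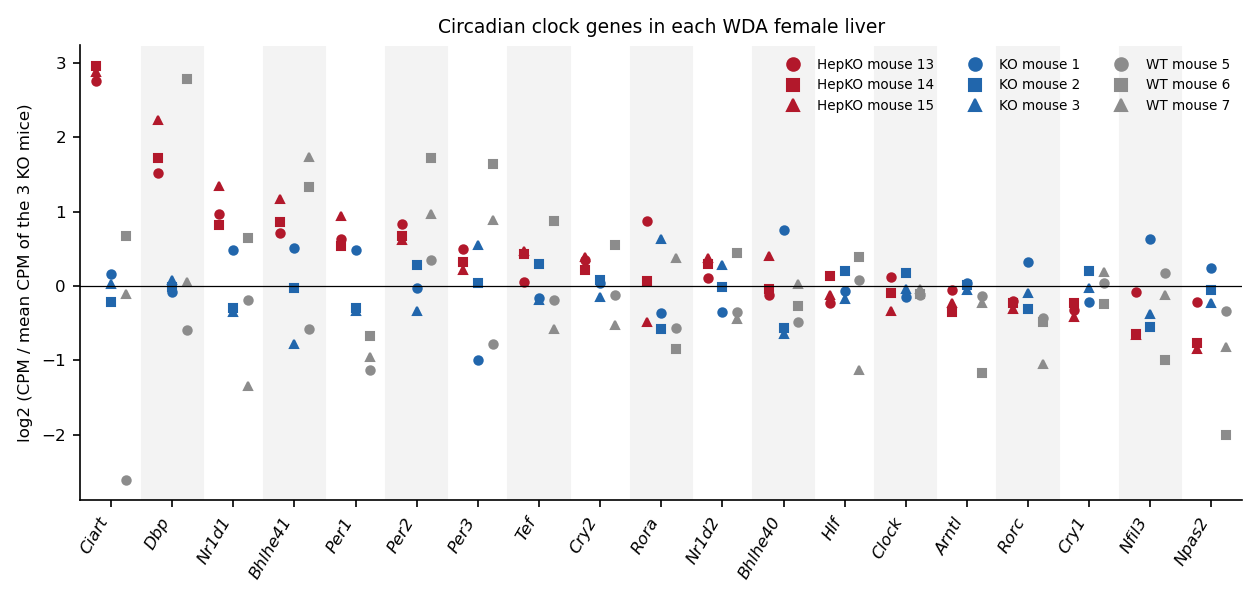
log2 of CPM over the mean CPM of the 3 KO mice for the 19 clock genes in each of 9 WDA female livers (points, 1 mouse each), ordered by the log2 fold change of HepKO over KO. *Ciart* and *Dbp* have all HepKO points above all KO points, and the WT points of *Dbp* range from 3.17 to 32.8 CPM.

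Major urinary protein (Mup) genes, which encode lipocalins that the liver secretes and that carry pheromones in urine, made up 3 of the 12 named genes with higher HepKO values. The family was taken up after its values were seen. Its genes are near-identical copies on chromosome 4, so reads may be divided among them, and single members are uncertain. Of 22 Mup genes with counts, 19 were tested, 0 passed with edgeR, and 16 had higher HepKO means. In 12 the unadjusted p was under 0.05 with higher HepKO values, against 3.06% of all genes tested. In 10 each HepKO liver was above each KO liver, against 5.44% of all genes tested. Because the members may share reads, these are not independent counts. The summed level, which does not depend on how reads were divided, was 21866, 30234 and 18853 CPM in HepKO and 13554, 14225 and 17767 CPM in KO livers. The groups did not overlap in the sum, but HepKO mouse 15 and KO mouse 3 came close. The median log2 fold change was 0.81 over the tested members and 0.49 without HepKO mouse 14.

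*Mup14* was nearest to the threshold with edgeR, and DESeq2 called it. It was 53.2, 88.8 and 50.8 CPM in HepKO and 15.4, 12.8 and 21.7 CPM in KO livers (log2 fold change 1.95, SE 0.254, adjusted p = 0.0782). *Mup18* was 91.5, 198 and 193 CPM against 57.7, 60.3 and 50.7 CPM and, of the 6 fits that leave out 1 mouse, passed in the 1 without HepKO mouse 13. *Mup11* was 244, 346 and 211 CPM against 131, 97.4 and 121 CPM. Among the abundant members, *Mup22* was 9674, 13321 and 8865 CPM in HepKO and 6397, 6374 and 7729 CPM in KO livers, and *Mup19* was 6621, 9702 and 5358 against 3176, 3854 and 4299 CPM. In contrast, *Mup3* was 1397, 1540.5 and 1415 against 1427, 1114 and 1762 CPM and *Mup10* 1437, 1451 and 699 against 998, 1265 and 1849 CPM, with overlap in both. The sum in WT livers was 14358, 12873 and 733 CPM, of which the last is mouse 7. Growth hormone acts on Mup genes and on other genes that differ between male and female livers. Of the 21 other tested genes in a list of these, which holds male-biased and female-biased genes together, 9 were higher and 12 lower in HepKO and none passed. An unadjusted p under 0.05 was found for 5 of them, against 3.06% higher and 2.68% lower over all genes tested. The male-biased *Cyp4a12a*, a fatty acid hydroxylase gene, was 3.67, 3.49 and 1.40 CPM in HepKO and 0.465, 0.331 and 1.51 CPM in KO livers (log2 fold change 1.89), and the male-biased *Elovl3*, a fatty acid elongase gene, was 52.8, 58.9 and 37.3 against 26.4, 29.1 and 39.2 CPM (0.65). Both had higher HepKO means, with overlap through KO mouse 3. The female-biased *A1bg* (1.30, 2.53 and 4.19 against 6.11, 3.09 and 8.66 CPM), *Cyp2a4* (617, 740.0 and 769 against 715, 1006 and 1043 CPM) and *Cyp2b9* (718, 665 and 680.3 against 844, 914 and 802 CPM) had lower HepKO means, and of these only *Cyp2b9* did not overlap.

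*Kcnk5*, which encodes a background potassium channel, had the same edgeR adjusted p as *Mup14*, and DESeq2 called it as well. It was 37.5, 37.9 and 40.8 CPM in HepKO and 19.7, 12.0 and 16.0 CPM in KO livers (log2 fold change 1.28, SE 0.168, adjusted p = 0.0782). The HepKO livers were close to each other and all were above the KO livers and above the WT livers, which were at 17.3, 17.8 and 8.48 CPM. *Klf9*, a glucocorticoid-responsive transcription factor, was 197, 191 and 193 CPM in HepKO and 137, 123 and 128 CPM in KO livers. Its relative *Klf13* was 49.7, 56.1 and 48.5 CPM against 36.0, 30.8 and 30.8 CPM. Neither passed with edgeR (adjusted p = 0.160 and 0.232), and DESeq2 called both (adjusted p = 0.000246 and 0.00263).

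In the other direction, *Ugt1a5* came nearest. It is 1 of the alternative first exons of the *Ugt1a* locus, whose enzymes attach glucuronic acid to bilirubin and drugs. It was 25.3, 22.7 and 28.5 CPM in HepKO and 114, 57.3 and 71.4 CPM in KO livers (log2 fold change -1.66, SE 0.231, adjusted p = 0.102). HepKO livers were all below KO livers, but WT livers were at 74.0, 86.6 and 10.3 CPM and spanned both. The *Ugt1a* genes share their later exons, so reads could be divided differently between them. Summed over the 6 tested *Ugt1a* genes and 2 untested ones, the level was 1489 to 1531 CPM in HepKO and 1544 to 1599 CPM in KO livers. The groups did not overlap in this sum either, though they lay close. *Hamp2*, a mouse paralog of the iron hormone hepcidin, was 70.3, 55.3 and 51.7 CPM in HepKO against 103, 100 and 162 CPM in KO. *Nfya*, a subunit of the promoter-binding factor NF-Y, was 6.09, 5.52 and 5.53 against 9.95, 9.22 and 8.72 CPM. *Paqr9* was 294, 350.0 and 279 against 606, 457 and 418 CPM. *Gm29667* had the largest log2 fold change of the 12 named genes with lower values, -2.19, at 1.01 to 2.31 CPM in HepKO and 5.25 to 9.19 CPM in KO livers. None of the 12 passed with edgeR (adjusted p = 0.102 to 0.441). DESeq2 called *Ugt1a5*, *Gm29667*, *Hamp2*, *Paqr9*, *Hspa1b*, *Gm5148* and *Cntnap1* of them.

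**Figure D4:**
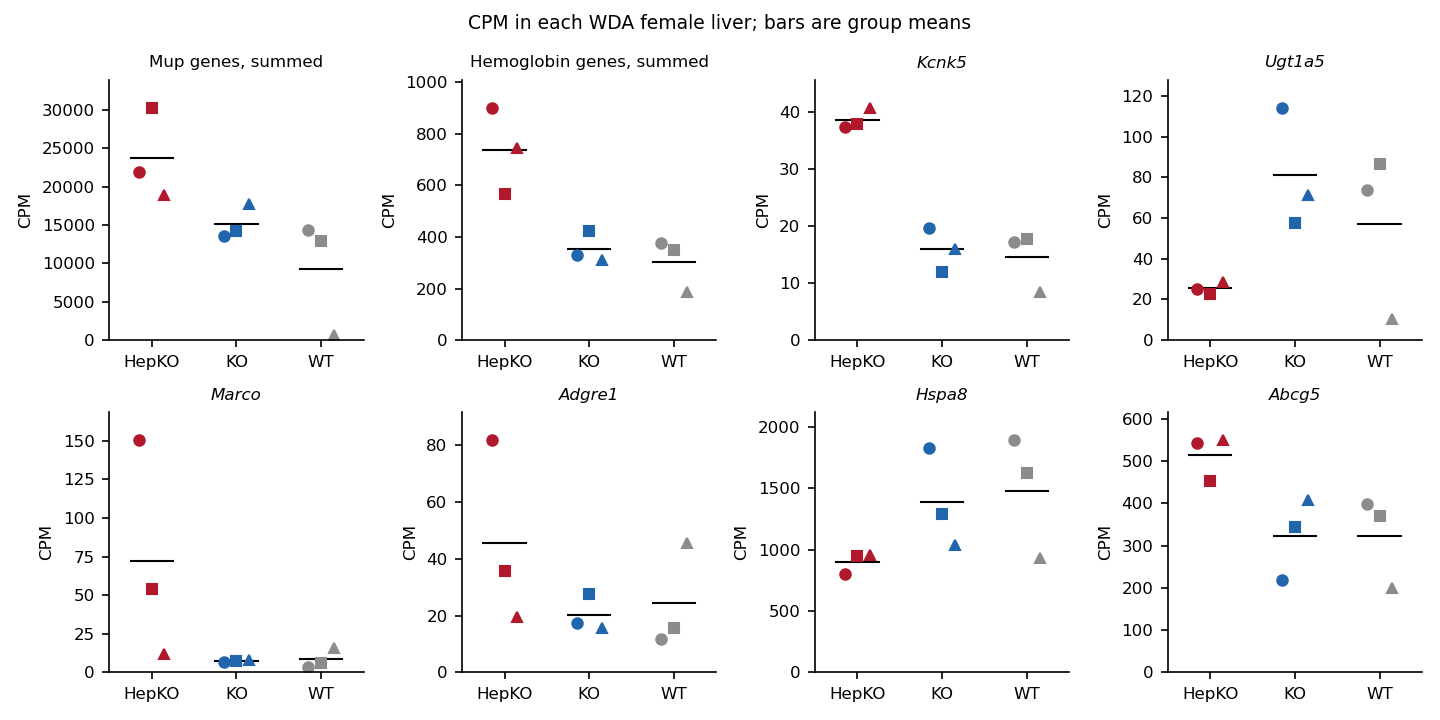
CPM in each WDA female liver (circle, square and triangle are mice 13, 14 and 15 in HepKO, 1, 2 and 3 in KO, and 5, 6 and 7 in WT) with the group mean (bar). HepKO livers lie above KO livers for the summed Mup and hemoglobin genes, *Kcnk5*, *Marco* and *Abcg5* and below for *Ugt1a5* and *Hspa8*. None of these genes passed the adjusted threshold with edgeR, and DESeq2 called *Kcnk5*, *Ugt1a5*, the hemoglobin genes and some Mup genes.

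Hemoglobin transcripts, which belong to red blood cells, were higher in each HepKO liver than in each KO liver. Summed over *Hba-a1*, *Hba-a2*, *Hbb-bs* and *Hbb-bt* they were 900.2, 566 and 746 CPM in HepKO, 329, 424 and 312 CPM in KO and 375, 350.3 and 187 CPM in WT livers. *Hba-a1*, for example, was 304, 199 and 238 CPM in HepKO and 105, 144 and 108 CPM in KO livers (log2 fold change 1.06, SE 0.174, adjusted p = 0.198). The alpha and beta genes are pairs of close copies. Of 10 blood cell markers listed 6 were tested, and these 6 had higher HepKO values without overlap, against 5.44% of all genes tested. The median of the 6 was 1.05 (0.88 to 1.21 without each mouse in turn). None passed with edgeR. *Alas2*, the heme synthesis enzyme of red cell precursors, was 41.9, 29.8 and 26.2 CPM against 21.4, 17.2 and 20.4 CPM. *Slc4a1*, which encodes the anion exchanger of the red cell membrane, had 15, 4 and 9 reads in HepKO and 0 in each KO liver, and was below the filter on low counts. Blood cell transcripts thus did not overlap between the groups, and their part in the other results was not tested.

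Kupffer cell markers differed in amount among the HepKO mice themselves. *Marco*, a scavenger receptor of macrophages, was 150.3, 53.8 and 11.6 CPM in HepKO mice 13, 14 and 15 and 6.52, 7.57 and 8.14 CPM in KO mice. Its log2 fold change of 3.28 had an SE of 0.725 and did not pass (adjusted p = 0.441). It passed without mouse 15 (adjusted p = 0.0262). *Adgre1* (F4/80) was 81.6, 35.6 and 19.3 CPM in HepKO and 17.3, 27.5 and 15.5 CPM in KO livers, *Timd4* 40.1, 18 and 6.93 and 7.68, 10.6 and 10.5 CPM, and *Cd5l* 334, 218 and 147 and 117, 186 and 149 CPM. For these 4 genes and for *Vsig4* (63.8, 51.6 and 42.7 against 33.9, 48.4 and 37.9 CPM) mouse 13 was highest and mouse 15 lowest of the HepKO livers, and apart from *Marco* the groups overlapped. *Clec4f*, a marker restricted to Kupffer cells, did not follow. It was 96.6, 103 and 88.6 CPM against 93.7, 121 and 69.4 CPM. The 12 markers tested include *Cdh5*, which is also in the endothelial list. Of the 12 markers 11 had higher HepKO means. An unadjusted p under 0.05 with higher values was found for 5, against 3.06% of all genes tested. The summed level was 1056, 755 and 554 CPM in HepKO against 475, 674 and 522 CPM in KO livers. The median was 0.34, with 0.25 to 0.63 without each mouse in turn, the highest without KO mouse 2.

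Markers of recruited and scar-associated macrophages were low in both groups. Their sum was 163 to 238 CPM in HepKO and 157 to 159 CPM in KO livers, so the groups did not overlap. The largest part was *Lyz2*, which encodes lysozyme and was 143, 92.2 and 65.2 CPM against 71.2, 74.2 and 63.2 CPM. Of the markers that define such cells, *Gpnmb* was 2.54, 1.52 and 2.12 CPM in HepKO against 1.16, 0.773 and 1.05 CPM in KO livers and *Spp1* 16.3, 20.8 and 21.8 against 16.1, 15.1 and 13.5 CPM, both higher without overlap. *Ccr2*, the receptor of recruited monocytes, was 1.13, 1.58 and 1.06 against 2.21, 1.60 and 2.15 CPM, and *Fabp5* 4.4, 4.33 and 4.30 against 5.93, 5.36 and 8.08 CPM, both lower without overlap. *Spp1* was also listed as a cholangiocyte marker. None of the 16 macrophage markers passed, and 11 had higher and 5 lower HepKO means. Without overlap, 3 were higher and 4 lower, against 5.44% and 5.3% of all genes tested. For comparison, WT mouse 7 alone had 1799 CPM over these markers.

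Heat shock genes, whose products mostly refold damaged proteins, had lower means in HepKO than in KO livers, largely through KO mouse 1. The list holds cytosolic genes together with the mitochondrial *Hspd1* and *Hspe1* and the regulator *Hsf1*. All 13 genes of the list that were tested had lower HepKO means, and none passed. Of these, 4 had an unadjusted p under 0.05 (2.68% of all genes tested) and 4 were lower without overlap (5.3% of all genes tested). Their sum was 2467 to 2714 CPM in HepKO and 4460, 2992 and 2723 CPM in KO mice 1, 2 and 3. The median was -0.42, and -0.12 without KO mouse 1, when 10 of 13 were lower. *Hspa1b*, the inducible HSP70, was 3.33, 2.98 and 2.90 CPM in HepKO against 7.97, 6.41 and 4.83 CPM in KO and 35.8, 21.1 and 16.5 CPM in WT livers, so both knockout groups were below every WT liver. *Dnajb1*, its cochaperone, was 10.9, 13.4 and 12.1 against 17, 19.4 and 18.4 CPM. *Hspa8*, the constitutive HSP70, was 802, 947 and 952 against 1832, 1291 and 1038 CPM. *Hsph1* shows the part of mouse 1 most plainly, at 17.4, 15.1 and 12.7 CPM in HepKO and 66.5, 17.5 and 13.3 CPM in KO livers.

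Interferon response genes had the same shape. Of 25 tested 23 had lower HepKO means, and none passed. Of these, 5 had an unadjusted p under 0.05 (2.68% of all genes tested) and 4 were lower without overlap (5.3% of all genes tested). The median of -0.34 became -0.10 without KO mouse 1, with 19 of 25 lower. *Oasl2*, an interferon-induced antiviral gene, was 2.43, 3.04 and 2.63 CPM in HepKO and 6.05, 5.30 and 4.24 CPM in KO livers, with no overlap. *Ifit1* was 2.82, 2.36 and 2.79 against 8.78, 3.37 and 3.37 CPM, where mouse 1 was far above the other KO mice. Acute phase protein genes had a median of -0.16, and 0.13 without KO mouse 1, so their direction rests on that liver (it was -0.27 without KO mouse 2 and -0.07 without HepKO mouse 13). Antigen presentation genes had a median of -0.19, which was -0.10 without KO mouse 1 or HepKO mouse 13 and -0.29 without KO mouse 2, with *Cd74* (the MHC class II invariant chain) at 44.5, 66.6 and 68.7 CPM in HepKO and 97.7, 73.6 and 82.1 CPM in KO livers.

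Immediate early genes, which cells induce within minutes of a stimulus, had a median of 0.41 in the other direction (0.64 without KO mouse 1, and 0.23 without KO mouse 2 or HepKO mouse 15). Of 17 tested 15 were higher, and none passed. With higher values, 5 had an unadjusted p under 0.05 (3.06% of all genes tested), all 5 without overlap (5.44% of all genes tested). *Dusp1*, a phosphatase that shuts off MAP kinases, was 42.7, 42.0 and 56.5 CPM in HepKO and 35.0, 20.5 and 22.7 CPM in KO livers. *Fos* was 6.15, 6.47 and 9.22 against 3.37, 4.64 and 3.90 CPM and *Klf6* 15.1, 14.9 and 13.3 against 9.66, 11.1 and 9.01 CPM. *Egr1* overlapped, at 13.7, 17.2 and 35.7 against 21.8, 29.1 and 25.5 CPM. Among DNA damage and p53 targets 14 of 16 were higher with a median of 0.25, which was 0.15 without KO mouse 1 and 0.16 without KO mouse 2, and *Sesn2*, a stress-induced regulator of mTORC1, was 31.4, 23.5 and 23.5 CPM against 14.8, 11.2 and 17.7 CPM (log2 fold change 0.85, adjusted p = 0.441). *Mt1*, a zinc-binding metallothionein, was 566, 408 and 409 CPM against 472, 135 and 214 CPM, and KO mouse 1 lay among the HepKO livers.

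LXR nuclear receptors sense oxysterols and drive sterol efflux and fatty acid synthesis, and they are a main subject of the study. All 25 LXR genes listed were tested, 17 were higher and 8 lower, none passed, and the median was 0.13, or 0.06 without KO mouse 2. With an unadjusted p under 0.05 there were 4 higher and 1 lower, against 3.06% and 2.68% of all genes tested. *Abcg5* and *Abcg8*, whose products pair to pump sterols into bile, went together. *Abcg5* was 542, 454 and 549.8 CPM in HepKO and 219, 345 and 408 CPM in KO livers (log2 fold change 0.67, SE 0.200, adjusted p = 0.658). *Abcg8* was 485, 416 and 501 against 244, 331 and 375 CPM (0.56, adjusted p = 0.645). In both, HepKO livers were above KO livers, and KO mouse 1 was the lowest. *Lpcat3*, a phospholipid acyltransferase, was 260.1, 257 and 246 against 225, 207 and 226 CPM, and *Scd2*, a desaturase, 20.3, 14.4 and 10.9 against 7.74, 9.50 and 8.43 CPM. The receptor gene *Nr1h3* (61.8, 66.4 and 71.4 against 79.6, 63.7 and 71.3 CPM), *Abca1* (489, 342 and 318 against 272, 314 and 465 CPM) and *Apoe* (18561, 22382 and 22799 against 18502, 16576 and 19405 CPM) overlapped.

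*Cyp7a1*, the rate-limiting enzyme of bile acid synthesis, was 24.1, 28.9 and 31.7 CPM in HepKO and 22.5, 71.8 and 61.5 CPM in KO livers. KO mouse 1 was below all HepKO mice and the other KO mice were above them. It did not pass (log2 fold change -0.88, SE 0.344, adjusted p = 0.810), and passed without KO mouse 1 (log2 fold change -1.24, adjusted p = 0.0370). *Cyp2c70*, which makes the mouse-specific muricholic acids, was 84.2, 95.2 and 85.5 CPM against 114, 109 and 123 CPM, lower in each HepKO liver. *Cyp27a1*, of the alternative pathway, was 242, 241 and 261 against 225, 223 and 209 CPM. Summed *Cyp3a* transcripts were 8599 to 10007 CPM in HepKO and 6156 to 8067 CPM in KO livers, without overlap, and most of them were *Cyp3a11*, the main drug-metabolizing member, at 8632, 7975 and 6972 CPM against 4697, 5394 and 6454 CPM. The female-predominant *Cyp3a41a* was 76.4, 111 and 309.8 against 247, 464 and 365 CPM, in the other direction with overlap. The *Cyp3a* genes are close copies as well, and their median was 0.00.

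Lipid synthesis genes lay on both sides of 0. Of 19 lipogenesis genes 10 were higher and 9 lower, none passed, and the median was 0.02. *Fasn* (fatty acid synthase) was 151, 138 and 115 CPM in HepKO and 158, 111 and 101 CPM in KO livers, and *Scd1*, the main liver desaturase, 16588, 14189.9 and 12458 against 16297, 12522 and 20368 CPM. *Fads1*, a desaturase of polyunsaturated fatty acids, was 305, 283 and 284 against 371, 378 and 383 CPM, with little spread in both groups (log2 fold change -0.38, SE 0.0892, adjusted p = 0.464). *Lpin1*, a phosphatidate phosphatase and coactivator, was 69.2, 122 and 134 against 42.7, 66.2 and 63.9 CPM, higher without overlap (log2 fold change 0.91, adjusted p = 0.611). *Pnpla2*, the lipase of lipid droplets, was 202, 248 and 270.5 against 187, 195 and 179.9 CPM. The median of the 25 fatty acid oxidation genes tested depended on single mice. It was -0.01 over all 6 livers, 0.13 with 23 genes higher without KO mouse 1 and -0.16 with 20 genes lower without KO mouse 3. Cholesterol synthesis (23 tested) had a median of -0.03, with -0.11 to -0.01 without each mouse in turn, and gluconeogenesis and glycolysis (20 tested) 0.09, with 0.04 to 0.14.

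Matrix genes are made mostly by stellate cells and fibroblasts. Of 31 tested 23 were higher in HepKO, none passed, and the median was 0.14 (0.29 without KO mouse 1). With higher values, 8 had an unadjusted p under 0.05 (3.06% of all genes tested) and 9 did not overlap (5.44% of all genes tested). The level was low in both groups. *Col1a1*, the main fibrillar collagen chain of scars, was 7.96, 6.14 and 4.75 CPM in HepKO and 3.67, 2.26 and 3.66 CPM in KO livers (log2 fold change 0.97, SE 0.257, adjusted p = 0.611). *Col1a2*, its partner chain, was 16.8, 14.5 and 12.0 against 10.6, 10.1 and 10.6 CPM, and *Loxl2*, a collagen crosslinker, 7.73, 5.57 and 6.14 against 4.65, 3.92 and 4.24 CPM. WT mouse 7 had 72.2 CPM of *Col1a1*, while WT mice 5 and 6 had 3.29 and 3.98 CPM. *Acta2*, the actin of activated stellate cells and smooth muscle, went the other way, at 1.69, 0.957 and 1.51 CPM in HepKO and 5.53, 1.71 and 3.95 CPM in KO livers. The 15 stellate cell and fibroblast markers as a list had a sum of 629 to 694 CPM against 581 to 636 CPM.

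Of the 48 genes that the study's text names, 44 were tested and 0 passed with edgeR, while DESeq2 called *Lpin1* and *Mup13*. An unadjusted edgeR p under 0.05 was found for 11, against 3.06% higher and 2.68% lower over all genes tested. There were 27 higher and 17 lower. In 8 each HepKO liver was above each KO liver and in 2 below, against 5.44% and 5.3% of all genes tested. Their log2 fold changes ran from -1.15 (*A1bg*) to 1.04 (*Mup13*), with a smallest adjusted p of 0.441. Over the 47 gene lists, the clock list was the 1 list with a called member. The median was over 0.3 in 4 lists and under -0.3 in 3, and within 0.1 of 0 in 25. Without KO mouse 1 it was over 0.3 in 5 lists and under -0.3 in 0. The third list below -0.3, T and NK cell markers (-0.48, and -0.29 without that mouse), rests on 7 tested genes that were near 1 CPM in all 6 livers.

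**Figure D5:**
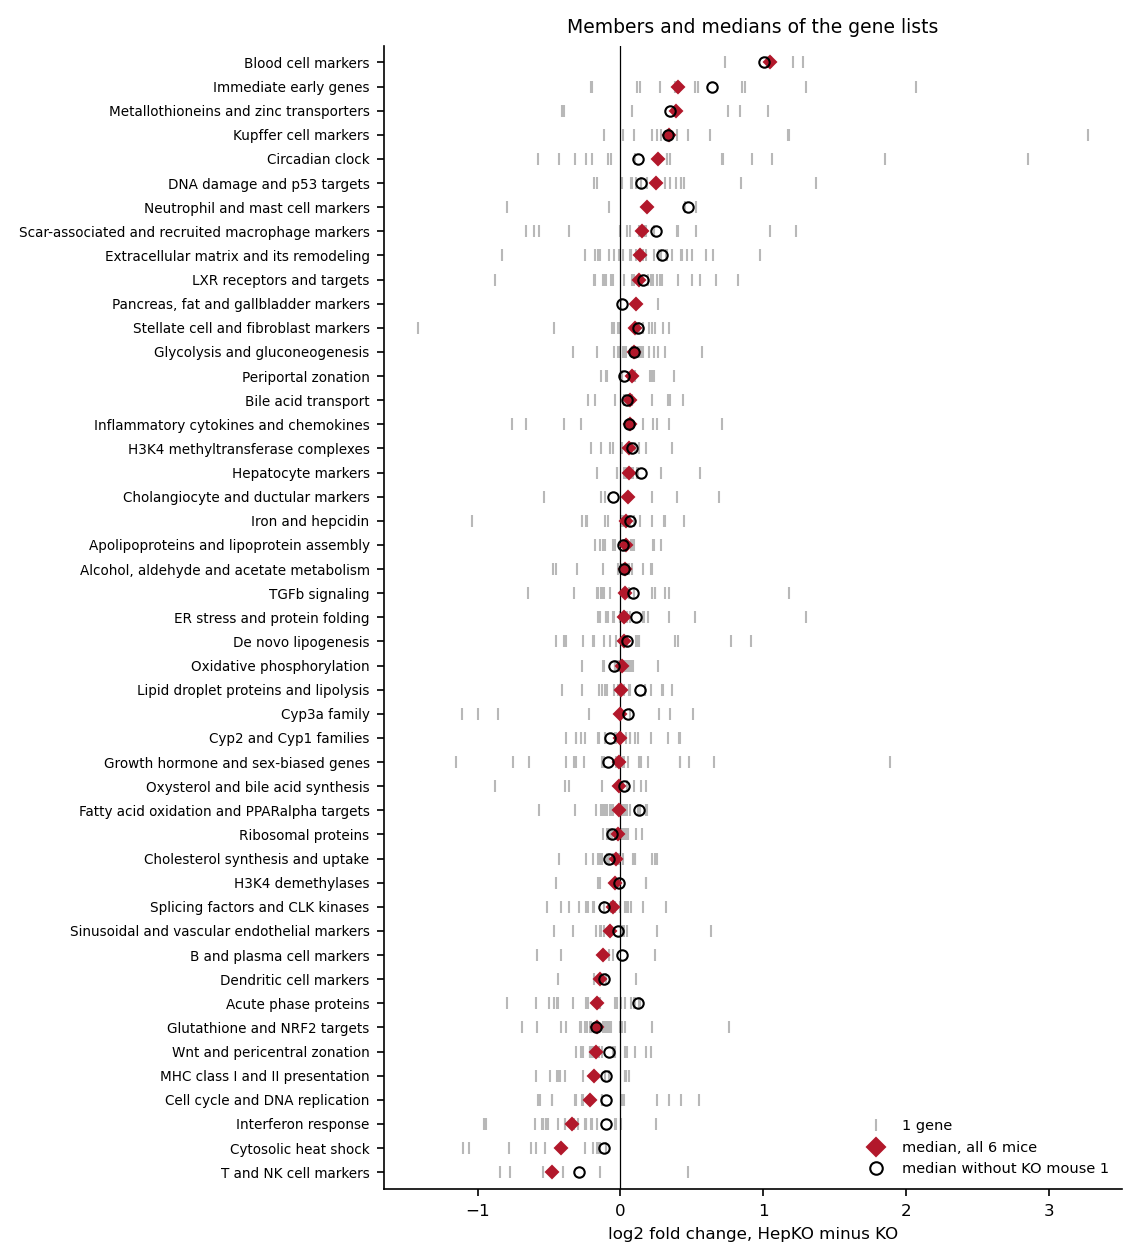
log2 fold change of HepKO over KO for each tested member (ticks) of the 47 gene lists, with the median over 6 mice (diamond) and without KO mouse 1 (circle). The medians of the heat shock (-0.42 to -0.12) and interferon (-0.34 to -0.10) lists move toward 0 without that mouse, and that of the blood cell list is 1.05 with it and stays close to that without it.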

How the data were processed

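RNA of whole liver was sequenced on a BGISEQ instrument. Per the study's methods and the submitters' processing notes, HISAT and Bowtie2 were the aligners and GRCm38.p6 the build, and the quantifier is not given in the sources used here. The authors deposited 1 expected count per gene and library, an estimated number of reads that need not be whole (6.82% to 8.17% were not), and the FPKM value the authors scaled by length and depth. Groups follow the labels. All mice come from experiment 11.

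Rounded expected counts went into edgeR 4.0.16 (R 4.3.3) with filterByExpr (minimum count 10), TMM scaling, glmQLFit and glmQLFTest on the 6 libraries, and Benjamini-Hochberg adjustment over all genes tested at 0.05. The common biological coefficient of variation was 0.149. CPM are TMM-scaled. The depth per library is 16982524 counts or more, and precision is set by n = 3. DESeq2 1.42.0, limma 3.58.1 on log2 FPKM, other scalings, filters, sources of spread and leaving out each mouse were alternatives. Fits were tested on simulated data.

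In each direction 12 genes are named: those with the largest log2 fold change that passed, averaged 2 or more on the log2 CPM scale and did not overlap between the groups, filled by smallest unadjusted p. Of the genes with lower HepKO values, 1 is not reported here. In each list up to 4 members are named that passed or, with none, of smallest unadjusted p, and the 2 most abundant, besides 48 genes the study names. Clock genes other than *Ciart*, *Dbp*, *Nr1d1* and *Rora*, most Mup genes, and *Alas2*, *Hsph1*, *Vsig4*, *Clec4f*, *Lpcat3*, *Egr1* and *Serpina1e* were added after their values were seen. The members and lists were chosen with earlier results of these data known. Lists are described by counts and medians, with no test. Promoter sequences were matched by gene ID to RefSeq on GRCm38.p6. The other 18 libraries entered only 1 alternative.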

Additional observations from a re-analysis of the deposited data

How the results depend on the processing

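The count of genes called, 2, did not change under RLE or upper quartile scaling, library totals, log2 FPKM with a pseudocount of 0.1, or a filter of 10 counts in every library, and *Ciart* and *Dbp* were the genes in each. It was 1 with a pseudocount of 1, 5 with no filter, 40 with DESeq2 (26 of them over 2-fold), and 0 when the spread came from the 9 WDA females, from all 27 libraries, or from 8 WDA females without WT mouse 7, an alternative chosen after seeing the data. The counts at an unadjusted p under 0.05 were then 309, 393 and 820. The counts over 2-fold were 1, 5, 26 and 0 under these settings. Leaving out each mouse gave 1 to 5 genes called, and 1 to 5 over 2-fold. With no filter *Kcnk5*, *Mup14* and *Ugt1a5* joined, and without KO mouse 1 *Cyp7a1*, *Kcnk5*, *Nr1d1* and *Ugt1a5* passed with *Ciart* while *Dbp* did not. The cause was not tested. *Kdm5b* did not pass in any setting, at log2 fold changes of -0.69 to -0.19 without each mouse and -0.48 to -0.35 under the other 11 alternatives.

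Of 5151 values of the other named genes under alternatives, 84 moved by more than the spread between replicates, 34 passed where they had not, 11 (all *Ciart* or *Dbp*) no longer passed and 0 reversed, while 132 values of genes that did not pass had the opposite sign. Of 517 list medians 47 moved and 46 had the opposite sign. No paired analysis was possible because the groups share no mouse number and the replicate numbers are only names. Depth limits genes near 1 CPM.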

Other observations

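*Serpina1e*, 1 of 5 *Serpina1* genes that encode alpha-1-antitrypsin, was 112, 73.7 and 34.9 CPM in HepKO mice 13, 14 and 15 and 11.8, 25.1 and 10.4 CPM in KO mice 1, 2 and 3 (log2 fold change 2.22, adjusted p = 0.375). These genes are near-identical, and their sum was 15777 to 18545 CPM in HepKO and 15859 to 17724 CPM in KO livers, with overlap. The HepKO mice stood in the same order for *Serpina1e*, *Marco* and *Adgre1*, with mouse 13 highest. How many other genes have this order was not counted, so it shows no link between these genes.

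Ribosomal protein genes (22 tested) had a median log2 fold change of -0.02 with members between -0.12 and 0.15. Without KO mouse 3 all 22 were higher (median 0.11) and without HepKO mouse 15 20 were lower (-0.11), so their direction turned with single mice. Oxidative phosphorylation genes (20 tested) had a median of 0.01, with -0.05 to 0.07 without each mouse in turn. In WT mouse 7, which belongs to no group compared here, cholangiocyte and ductular markers summed to 625 CPM, against 52.5 to 84.0 CPM in the other 8 WDA females, and pericentral genes to 1394 CPM, against 11140 to 13621 CPM.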
